A study of Mus musculus with 15 samples.

Results

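The 10 genes Odc1, Amd1, Amd2, Srm, Sms, Sat1, Smox, Oaz1, Oaz2 and Azin1 were followed in mouse liver. They were taken by name from the 35546 genes to which the transcripts of the table could be summed, and all 10 were among the 13916 genes that passed the filter on low counts. Amd2 passed that filter through the C247S KI libraries alone. Amd2 was chosen by its measured level in C247S KI against WT livers, so its values are a description with no test, while the other 9 genes were taken for their roles. The livers came from mice after 8 weeks of high-fat diet and formed 3 groups by the labels: Txnip knockout (KO), knock-in of the TXNIP C247S change (C247S KI) and wild type (WT), with 5 libraries each. The diet was common to all 3 groups. Sample titles begin with a number whose meaning is not given. The numbers of the KO libraries lie in a lower range, apart from those of C247S KI and WT, which overlap. Anything that follows that number cannot be told apart from the KO genotype. The sources used here give neither the strain, sex and age of the mice nor the tissues in which Txnip was deleted. Whether the 5 libraries of a group are 5 mice is not said in the labels, and p-values therefore speak only of the spread among libraries, which may be technical.

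The polyamines putrescine, spermidine and spermine are small cations that bind nucleic acids and are needed for translation and growth. Ornithine decarboxylase (Odc1) makes putrescine, and S-adenosylmethionine decarboxylase (Amd1) supplies the aminopropyl groups with which spermidine synthase (Srm) and spermine synthase (Sms) lengthen it. Spermidine/spermine acetyltransferase (Sat1) and spermine oxidase (Smox) run the pathway backwards, antizymes (Oaz1, Oaz2) send ornithine decarboxylase to the proteasome and block polyamine uptake, and the antizyme inhibitor Azin1 opposes them. Much of the control of Odc1, Amd1, Sat1 and the antizymes acts on translation and protein turnover, which RNA levels do not show.

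Amd2 is annotated as a protein-coding gene of 1 exon on the minus strand of chromosome 10 (35708675 to 35711892, GRCm38), and Amd1 as a gene of 8 exons on the same strand (40287458 to 40302186), 4.58 Mb away. Their full-length transcripts, of 3218 bases for Amd2 and 3204 bases for Amd1, were 99.6% identical up to base 3198 of Amd1, with 10 substitutions and 2 gaps. The 1005 bases of coding sequence, stop codon included, differed by 1 substitution, G1124C, where positions count from the first base of the Amd1 transcript and the Amd1 base is named first. Of the other substitutions 1 lies in the 5' UTR (T166A) and 8 lie in the 3' UTR, from C1476T to T2676C. The coding stretch around G1124C is shown because it holds the 1 coding base that tells the copies apart, which is in capitals. It lies on the minus strand at chr10:40290156-40290216 for Amd1 and chr10:35710734-35710794 for Amd2, in transcripts of GENCODE M21 (GRCm38).
Amd1: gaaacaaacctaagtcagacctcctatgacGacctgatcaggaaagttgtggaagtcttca
Amd2: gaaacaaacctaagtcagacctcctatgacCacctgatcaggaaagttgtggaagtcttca

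The sequences upstream of the starts are shown because the transcripts are nearly the same while these windows are not. They are the 250 bases before the RefSeq starts (GRCm38.p6, minus strand), at chr10:40302189-40302438 for Amd1 and chr10:35711892-35712141 for Amd2. Capitals mark the letters TATATAA, which were searched on both strands (the reverse complement overlaps the same site).
Amd1: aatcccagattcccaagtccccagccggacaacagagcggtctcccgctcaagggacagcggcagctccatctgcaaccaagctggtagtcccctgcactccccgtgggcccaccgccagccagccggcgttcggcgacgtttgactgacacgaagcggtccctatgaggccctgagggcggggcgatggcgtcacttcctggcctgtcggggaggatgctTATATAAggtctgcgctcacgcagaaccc
Amd2: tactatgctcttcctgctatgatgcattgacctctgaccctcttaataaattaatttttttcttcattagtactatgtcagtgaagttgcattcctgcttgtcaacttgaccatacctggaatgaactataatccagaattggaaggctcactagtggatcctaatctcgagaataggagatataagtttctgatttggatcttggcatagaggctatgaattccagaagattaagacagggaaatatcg
Position by position 25.6% of the bases were the same, and no stretch of 12 bases was shared. The GC content was 37.6% upstream of Amd2 and 64.4% upstream of Amd1, beside a median of 52.4% over 32851 such windows. The letters were found before Amd1 and not in this window before Amd2, and 3.04% of all windows held them.

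Sequence sharing limits how far each gene's count can be trusted, because estimated counts divide shared reads among near-identical transcripts. Over words of 31 bases, 90.9% of those of Amd2 also occurred in Amd1 and 289 were its own. For Amd1 82.8% of its words occurred in another gene and 609 were its own. Odc1 shared 30.9% of its words, mostly with processed pseudogenes, of which the nearest, Gm7993, held 0 to 5 counts per library. Oaz1 shared 22.9% with Oaz1-ps, which held 236 to 563 counts per library beside 5485 to 11844 for Oaz1. Sms shared 18.8%, mainly with Sms-ps, which held 17 to 58 counts beside 75 to 156 for Sms, so the Sms values are uncertain. Oaz2 shared 12.1%, Srm 9.41%, Sat1 6.92% and Azin1 0.0942%, and Smox shared none of its 4155 words.

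**Figure D1:**
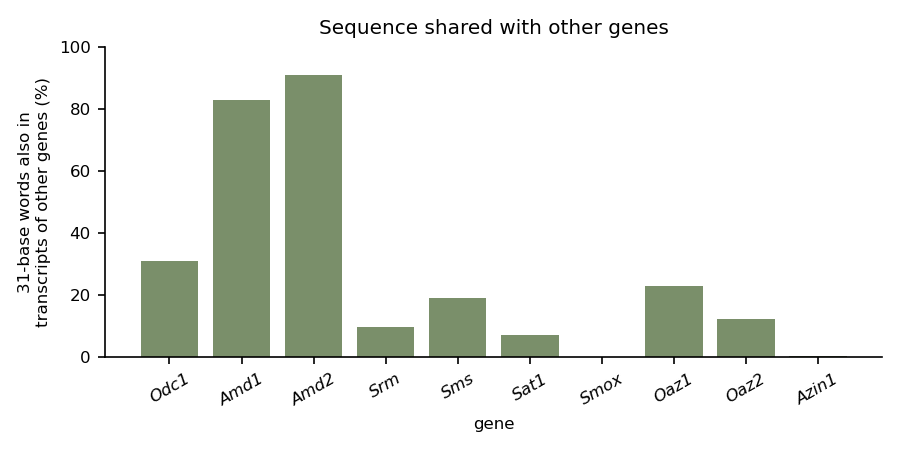
Share of each gene's distinct 31-base words (y axis, percent) that also occur in annotated transcripts of other genes in the table, for the 10 polyamine genes (x axis). Amd2 (90.9%) and Amd1 (82.8%) stand above the other 8, of which Odc1 has the highest share at 30.9%.

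The libraries held 18047577 to 23379940 estimated counts each, and levels are given as CPM, the count of a gene relative to the library's total after scaling by TMM factors. Txnip, the targeted gene, was at 70.9, 123, 108, 74.2 and 119 CPM in KO 1 to 5, against 180 to 320 CPM in WT, and at 99.9 to 280 CPM in C247S KI, so it was lower in KO than in every WT library without being absent, while C247S KI 3 lay within the KO range. Its log2 difference was -1.17 for KO over WT (SE 0.24, adjusted p = 0.00886). On the first principal component of all tested genes KO libraries ran over -44.7 to -18.6 and the C247S KI and WT libraries over -0.0328 to 42.1, and WT 1, C247S KI 5 and KO 5 lay farthest out on the second. All 6 hepatocyte markers were present, with a summed level of 54930 to 75335 CPM in KO, 70423 to 118549 CPM in C247S KI and 84797 to 102072 CPM in WT.

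Amd2 was measured in the C247S KI livers and was close to 0 in the others. Its count was 78, 80, 72, 23 and 65 in C247S KI 1 to 5, against 9, 4, 2, 5 and 4 in WT 1 to 5, and it was 7, 4, 2, 8 and 0 in KO 1 to 5. As levels these were 1.29 to 4.11 CPM in C247S KI, 0 to 0.415 CPM in KO and 0.0965 to 0.466 CPM in WT. The lowest C247S KI library, C247S KI 4, lay above every WT and KO library. Among all tested genes, C247S KI lay above all WT libraries for 0.711%. That share is no test of Amd2, which was chosen by this same difference. The fitted log2 difference of Amd2 was 3.66 (SE 0.50) for C247S KI over WT and -3.86 (SE 0.51) for KO over C247S KI, both given with no test. Between KO and WT its counts, 0 to 8 in KO and 2 to 9 in WT, overlapped; they were too low to have passed the filter by themselves, so no test is given there either.

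Amd1 was lowest in C247S KI 2, and its differences between the groups did not pass the test. Amd1 was at 17.9, 3.08, 14.999, 12.5 and 12.9 CPM in C247S KI 1 to 5, against 30.3, 19.8, 20.2, 15.6 and 17.3 CPM in WT 1 to 5. In KO 1 to 5 it was at 20.7, 16.8, 24.2, 21.4 and 17.2 CPM. C247S KI 2 stood apart, with 64 counts of Amd1 where the other C247S KI libraries held 223 to 411, while its total of 20684648 counts was within the range of the rest. The log2 difference of Amd1 was -0.75 for C247S KI over WT (SE 0.30, adjusted p = 0.448, 95% interval -1.38 to -0.12), and -0.50 (SE 0.18, adjusted p = 0.374) without C247S KI 2. For KO over C247S KI it was 0.71 (SE 0.30, adjusted p = 0.139), and 0.47 (SE 0.18, adjusted p = 0.116) without C247S KI 2, and for KO over WT it was -0.04 (SE 0.30, adjusted p = 0.949), which turned to 0.14 without WT 1. None of these passed the threshold of an adjusted p of 0.05.

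Because the copies share most of their sequence, the division between them was examined in each library. Amd2 made up 16.0%, 55.6%, 21.5%, 9.35% and 17.4% of the Amd1 and Amd2 counts in C247S KI 1 to 5. In KO its share was 0% to 1.90%, and in WT it was 0.476% to 1.81%. The exact 95% binomial interval was 47.1% to 63.8% in C247S KI 2 and 6.02% to 13.7% in C247S KI 4, and for KO 5, with 0 of 338 counts, it reached up to 1.09%. These intervals cover counting error only, and they do not cover the uncertainty of dividing shared reads. The mean share was 24.0% ± 18.2 in C247S KI, 1.01% ± 0.816 in KO and 1.15% ± 0.536 in WT (SD, n = 5 each). Without C247S KI 2 the C247S KI mean was 16.1%.

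Counted as 1 gene, Amd1 and Amd2 together were not higher in C247S KI. The sum was 21.3, 6.93, 19.1, 13.8 and 15.6 CPM in C247S KI 1 to 5, against 30.7, 20.001, 20.3, 15.9 and 17.6 CPM in WT 1 to 5, and 21.0, 17.0, 24.3, 21.8 and 17.2 CPM in KO 1 to 5. The groups overlapped, with 4 C247S KI libraries between 13.8 and 21.3 CPM and C247S KI 2 below all 14 others. The fitted log2 difference of the sum was -0.45 for C247S KI over WT (SE 0.23), 0.40 for KO over C247S KI (SE 0.23) and -0.05 for KO over WT (SE 0.23), with no test because the sum holds Amd2. Without C247S KI 2 the value was -0.26 for C247S KI over WT (SE 0.18) and 0.22 for KO over C247S KI (SE 0.18). Without WT 1 it was -0.26 for C247S KI over WT (SE 0.23) and turned to 0.14 for KO over WT (SE 0.23).

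**Figure D2:**
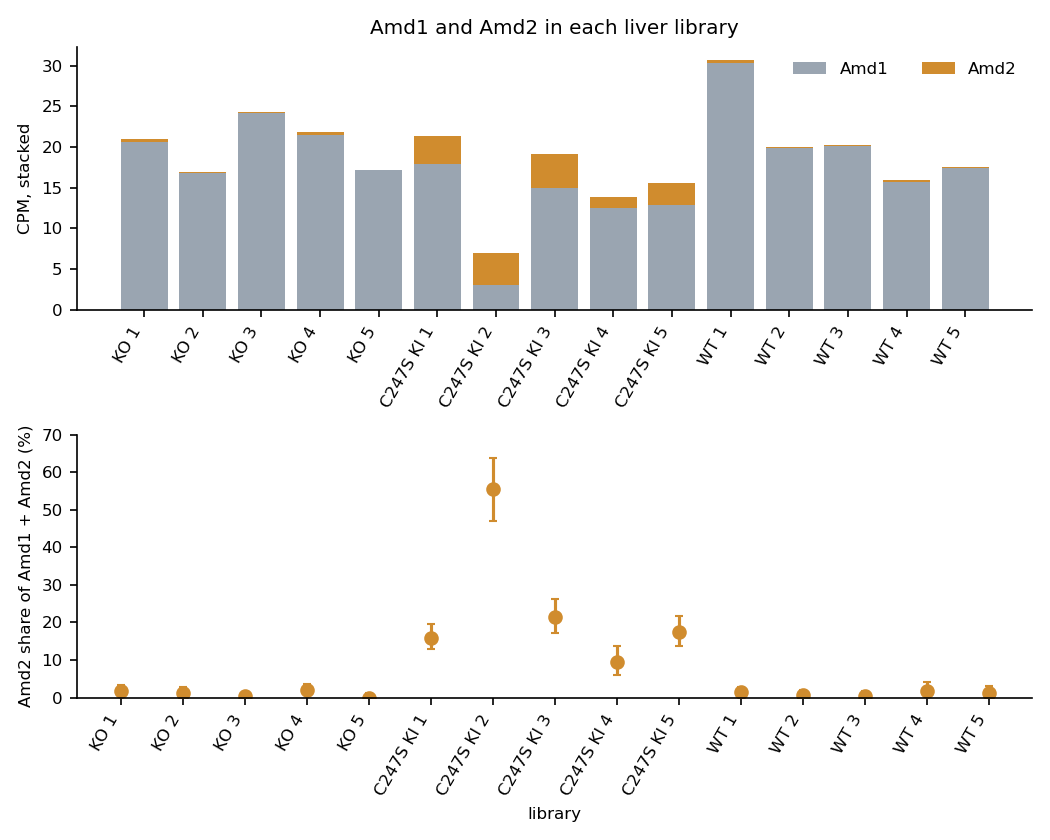
Upper panel, CPM of Amd1 and Amd2 stacked (y axis) in each of the 15 libraries (x axis); lower panel, percent of their summed counts that is Amd2, with exact 95% binomial intervals as bars. The 5 C247S KI libraries lie between 9.35% and 55.6%, and the KO and WT libraries lie at or below 1.90%.

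By a rule on likeness to Amd2 alone, the 5 genes whose log2 CPM followed it most closely over the 15 libraries were mt-Nd3 (Pearson r = 0.874), Ffar4 (0.873), Idi1 (0.836), Sqle (0.832) and Hsd17b7 (0.819). These r are a description over libraries that fall into genotype groups, and Amd2 rests on few counts outside C247S KI. Because Amd2 was chosen as high in C247S KI, genes that are also high in that group rank high here. Ffar4 and Idi1 were at low levels. Means in KO, C247S KI and WT were 0.206, 1.69 and 0.588 CPM for Ffar4 and 1.02, 4.38 and 1.36 CPM for Idi1. In the same order mt-Nd3 averaged 243, 607 and 205 CPM, and Hsd17b7 averaged 25.8, 66.6 and 30.7 CPM. Sqle, the squalene epoxidase, was at 8.54 ± 3.45 CPM in KO, 85.9 ± 35.3 CPM in C247S KI and 13.2 ± 6.48 CPM in WT (SD, n = 5 each). Idi1 and Hsd17b7 are also enzymes of cholesterol synthesis, mt-Nd3 is a complex I subunit encoded in the mitochondrial genome, and Ffar4 is a receptor of fatty acids.

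In KO livers, the RNA of Odc1, Srm and Sat1 differed from WT. Odc1 and Sat1 fell and Srm rose, the call of Srm being near the threshold. The other 6 genes with a test, Amd1 among them, did not pass. Those 3 of 9 genes compare with 6.75% of all genes tested in KO against WT; 2 of 9 fell beside 4.19% of all genes, and 1 rose beside 2.56%. The median log2 difference was -0.36 over the 9 genes and -0.01 over all genes tested, and 6 of the 9 were negative.

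Odc1 was at 71.6, 74.0, 70.9, 77.0 and 63.7 CPM in KO 1 to 5, against 112, 105, 111, 104 and 87.1 CPM in WT 1 to 5. Every KO library lay below every WT library, which held for 5.09% of all tested genes. The log2 difference was -0.54 (SE 0.10, edgeR adjusted p = 0.00431). C247S KI lay between, at 87.4, 80.9, 92.3, 94.7 and 76.0 CPM, and overlapped both: C247S KI 5 was below KO 4, and 3 of the C247S KI libraries were above WT 5. Its log2 difference was -0.27 for KO over C247S KI (SE 0.10, adjusted p = 0.0888) and -0.27 for C247S KI over WT (SE 0.10, adjusted p = 0.407), and neither passed.

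The main coding transcript of Odc1, Odc1-201, carried most of its counts in every library, with 1123 to 1369 counts in KO, 1372 to 1710 in C247S KI and 1533 to 2320 in WT. A transcript annotated as a target of nonsense-mediated decay, Odc1-205, held 121 to 222 counts in KO, 164 to 292 in C247S KI and 164 to 318 in WT. Coding transcripts made up 86.9% ± 1.67 of the Odc1 counts in KO, 86.4% ± 3.12 in C247S KI and 88.4% ± 2.49 in WT (SD, n = 5 each), so the groups overlapped in this share.

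Srm, which turns putrescine into spermidine, was at 28.3, 38.7, 27.67, 37.8 and 32.8 CPM in KO 1 to 5. It was at 20.2, 25.0, 27.66, 26.1 and 18.7 CPM in C247S KI 1 to 5, and at 24.9, 22.1, 20.8, 27.5 and 24.0 CPM in WT 1 to 5. The lowest KO library and the highest C247S KI library were almost level, and KO 3 was just above WT 4, so the groups did not overlap but came close. Such a lack of overlap, with KO higher, held for 4.51% of all tested genes against WT and 4.73% against C247S KI. Srm rose in KO by 0.47 against WT on the log2 scale (SE 0.13, adjusted p = 0.0403) and by 0.49 against C247S KI (SE 0.13, adjusted p = 0.0253). These were calls near the threshold. Against WT the call was lost without KO 2 (adjusted p = 0.104), KO 4 (0.0899), KO 5 (0.0753), WT 2 (0.0817), WT 3 (0.0852) or WT 5 (0.0561). Against C247S KI the edgeR call was lost without KO 2 (adjusted p = 0.0756), KO 4 (0.0716), KO 5 (0.0509), C247S KI 1 (0.0706) or C247S KI 5 (0.0600).

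Sms, which turns spermidine into spermine, was among the lower members on a scale per transcript length. Its level was 3.81 to 6.43 CPM in KO, 4.50 to 5.57 CPM in C247S KI and 5.19 to 7.34 CPM in WT. Its log2 difference was -0.37 for KO over WT (SE 0.15, adjusted p = 0.157) and -0.33 for C247S KI over WT (SE 0.15, adjusted p = 0.502), and it was -0.03 for KO over C247S KI (SE 0.16, adjusted p = 0.909). None of the 3 passed.

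Sat1, the acetyltransferase that starts the return from spermine and spermidine, was at 57.9, 60.2, 51.8, 51.1 and 51.9 CPM in KO 1 to 5. It was at 72.7, 63.5, 80.7, 75.2 and 117 CPM in C247S KI 1 to 5, and at 85.8, 75.7, 95.1, 78.1 and 90.3 CPM in WT 1 to 5. All KO libraries lay below all libraries of the 2 other groups, and the C247S KI and WT libraries overlapped. KO lay below all C247S KI libraries for 4.94% of all tested genes. Sat1 fell in KO by 0.64 against WT (SE 0.14, edgeR adjusted p = 0.0115) and by 0.58 against C247S KI (SE 0.14, adjusted p = 0.0133). Without C247S KI 5, the highest library, the log2 difference for KO over C247S KI was -0.42 (adjusted p = 0.0201), and it was -0.37 (adjusted p = 0.0333) without WT 1, C247S KI 3 and C247S KI 5. For C247S KI over WT it was -0.06 (SE 0.14, adjusted p = 0.907, 95% interval -0.34 to 0.23).

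The make-up of Sat1 transcripts varied between libraries. Coding transcripts held 67.8% to 82.0% of its counts in KO, 56.5% to 75.7% in C247S KI and 61.6% to 90.3% in WT. C247S KI 5, which had the lowest share, held 483 and 508 counts of the transcripts with retained introns Sat1-205 and Sat1-206, where the other C247S KI libraries held 131 to 172 and 85 to 150. With coding transcripts alone, an alternative chosen after seeing the data, the log2 difference of Sat1 was -0.73 for KO over WT (adjusted p = 0.00457) and -0.52 for KO over C247S KI (adjusted p = 0.0185).

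Smox, the spermine oxidase, was at 2.97 to 4.04 CPM in KO, 3.54 to 6.31 CPM in C247S KI and 3.05 to 5.66 CPM in WT, on 59 to 151 counts per library. Its log2 difference was -0.36 for KO over WT (SE 0.21, adjusted p = 0.307) and -0.42 for KO over C247S KI (SE 0.21, adjusted p = 0.203; -0.28 without C247S KI 5), and it was 0.05 for C247S KI over WT (SE 0.20, adjusted p = 0.948).

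**Figure D3:**
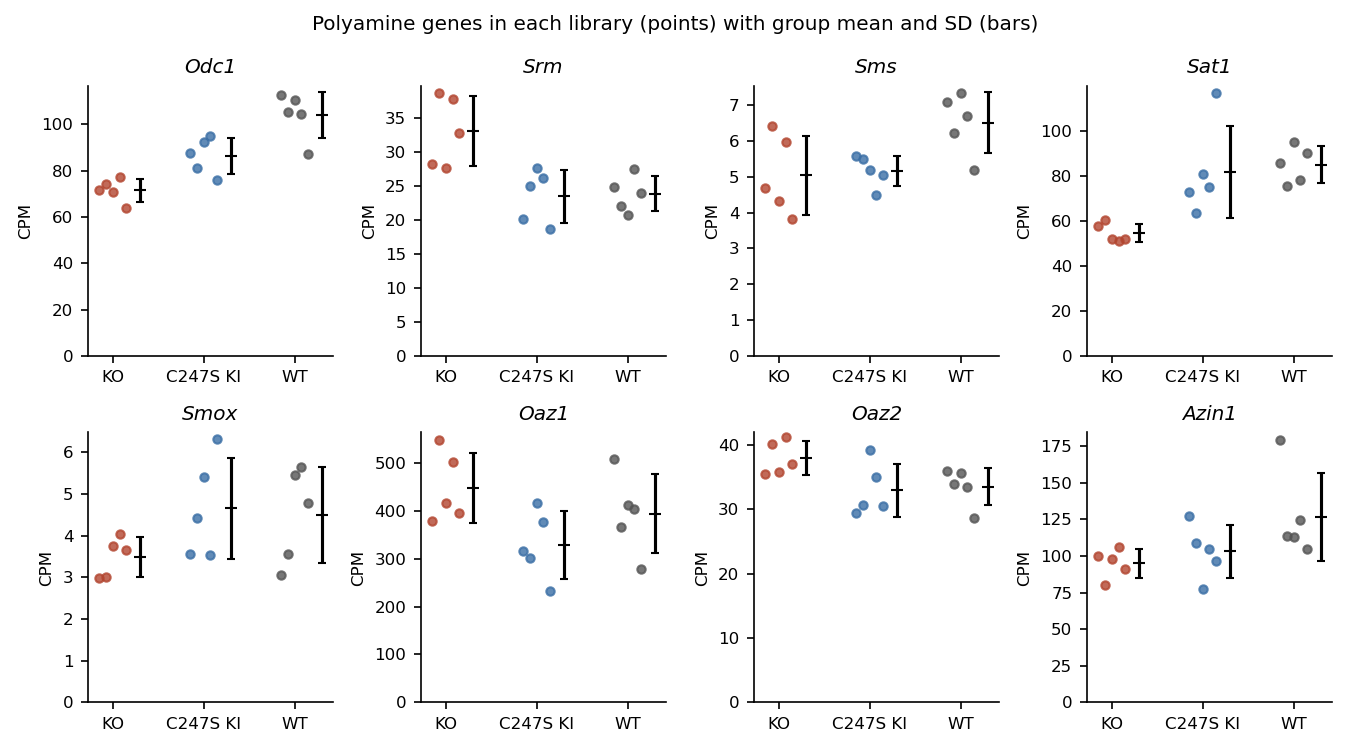
CPM (y axis, from 0) of 8 polyamine genes in the KO, C247S KI and WT libraries (x axis); each point is a library, and the bars beside them give the group mean and SD (n = 5). The KO points of Odc1 and Sat1 lie below all WT points, those of Srm lie above them, and Azin1 has 1 high WT library at 179 CPM.

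The antizymes and their inhibitor did not pass in any comparison. Oaz1 was at 378, 548, 415, 501 and 396 CPM in KO 1 to 5, against 507, 367, 413, 403 and 279 CPM in WT 1 to 5, with a log2 difference of 0.18 (SE 0.17, adjusted p = 0.568). In C247S KI it was at 315, 301, 416, 376 and 233 CPM, a log2 difference of 0.45 for KO over C247S KI (SE 0.18, adjusted p = 0.113) and -0.26 for C247S KI over WT (SE 0.18, adjusted p = 0.638). The value for C247S KI over WT was -0.16 without C247S KI 5 and -0.15 without WT 1. Without C247S KI 3 the KO over C247S KI value of Oaz1 was 0.54 and passed (adjusted p = 0.0460).

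Oaz2 was at 35.4 to 41.3 CPM in KO, 29.4 to 39.2 CPM in C247S KI and 28.7 to 36.0 CPM in WT. Its log2 difference was 0.18 for KO over WT (adjusted p = 0.298), 0.20 for KO over C247S KI (adjusted p = 0.199) and -0.02 for C247S KI over WT (adjusted p = 0.950).

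Azin1 was at 100.05, 80.2, 98.1, 106 and 91.1 CPM in KO 1 to 5, against 179, 114, 113, 124 and 105 CPM in WT 1 to 5. C247S KI lay at 77.8 to 127 CPM and overlapped both. The log2 difference of Azin1 was -0.42 for KO over WT (SE 0.15, adjusted p = 0.108), -0.30 for C247S KI over WT (SE 0.15, adjusted p = 0.545) and -0.12 for KO over C247S KI (SE 0.15, adjusted p = 0.653). Without WT 1, the library at 179 CPM, it was -0.25 for KO over WT (SE 0.13, adjusted p = 0.288) and -0.14 for C247S KI over WT (SE 0.13, adjusted p = 0.785). Azin1 resembles ornithine decarboxylase in protein sequence but lacks its activity, and it binds antizymes.

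In KO against C247S KI livers, 2 of the 9 genes with a test passed, Srm higher and Sat1 lower, beside 10.3% of all genes tested (4.41% higher and 5.85% lower). Among C247S KI and WT libraries 0 of those 9 passed with edgeR, where 0.0862% of all genes did (0.0647% higher and 0.0216% lower in C247S KI). At an unadjusted p under 0.05 3 of the 9 were lower in C247S KI than in WT, Odc1, Amd1 and Sms, beside 9.84% of all genes in either direction, and DESeq2 and limma-voom also called 0. Of these, Amd1 is not independent of the choice of Amd2 as high in C247S KI, because reads shared by the copies are divided between them. Their sum was at -0.45 for C247S KI over WT (SE 0.23), with no test. The comparisons share libraries with each other, so their values are set side by side and are not independent.

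**Figure D4:**
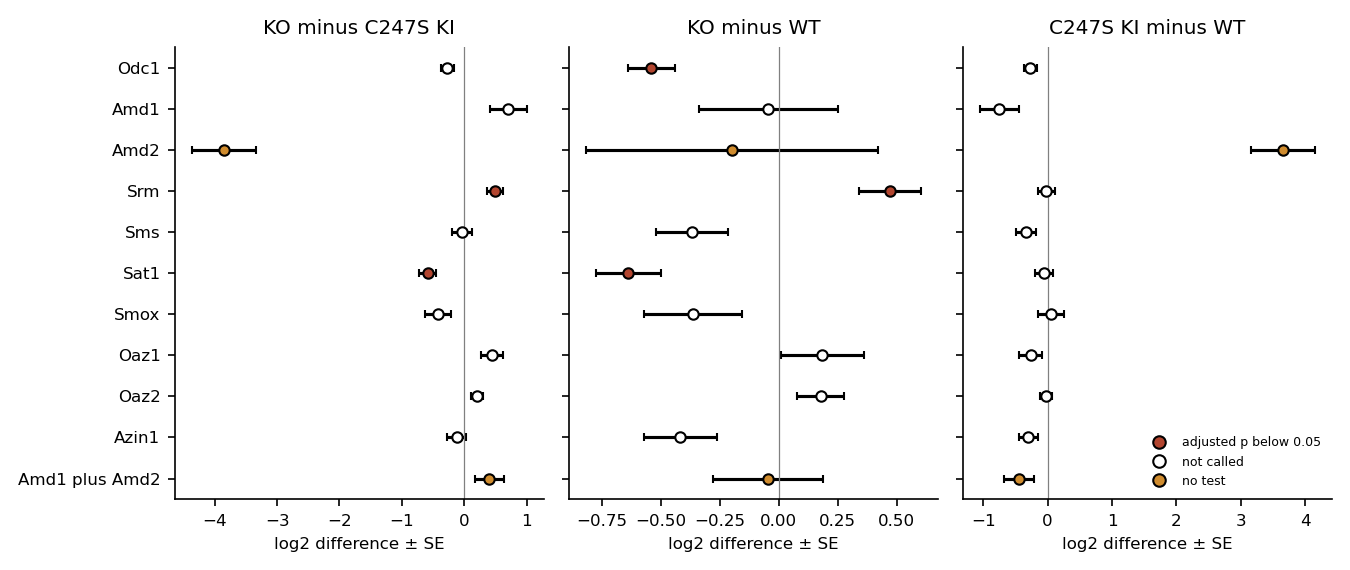
Fitted log2 difference with SE (x axis) of each polyamine gene and of Amd1 plus Amd2 (y axis) in KO over C247S KI, KO over WT and C247S KI over WT; filled red points passed an edgeR adjusted p of 0.05, white points did not and orange points have no test. Odc1, Srm and Sat1 passed in KO over WT, Srm and Sat1 in KO over C247S KI, and 0 of the 9 genes with a test in C247S KI over WT.

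The order of the genes was read on a scale that divides counts by annotated transcript length and scales each library to the same total as CPM does. In WT livers Oaz1 was the highest at 711 ± 99.1, followed by Sat1 at 117 ± 14.8, Odc1 at 75.9 ± 5.67 and Azin1 at 55.0 ± 11.9 (SD, n = 5 each). Oaz2 at 31.8 ± 2.24 and Srm at 29.0 ± 3.11 were within their spread of each other. Amd1 at 10.9 ± 2.42 was above Sms at 4.56 ± 0.563 and Smox at 3.72 ± 1.08, which overlapped, and Amd2 was last at 0.116 ± 0.0586. In KO, Oaz1 was at 742 ± 72.1, Sat1 at 68.8 ± 7.52, Odc1 at 48.2 ± 3.95, Srm at 35.8 ± 2.75 and Azin1 at 35.0 ± 6.65. Srm and Azin1 were within their spread of each other in KO, whereas in WT Azin1 was above Srm in every library. On the same scale in C247S KI, Amd2 was at 1.51 ± 0.538, below Amd1 at 6.97 ± 3.39.

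The wider pathway was read from 7 lists with 38 genes, of which 34 were tested: ornithine supply, S-adenosylmethionine supply and use, methylthioadenosine salvage, other polyamine catabolism and antizyme genes, polyamine transport, eIF5A hypusination and control of Odc1 by the Myc network. In KO against WT 0 of the 34 passed with edgeR (2 at an unadjusted p under 0.05), beside 6.75% of all genes tested (23.3% unadjusted), and their median log2 difference was 0.08. In KO against C247S KI 1 rose and 1 fell, and 10 were under an unadjusted p of 0.05. Over all genes tested 4.41% rose, 5.85% fell and 27% were under that unadjusted p, so the 2 of 34 called are no more than the share of all genes called, 10.3%. The median of the 34 was 0.20. Agmat, annotated as agmatinase, rose by 0.59 (SE 0.15, 192 ± 24.2 against 128 ± 26.8 CPM in C247S KI, SD, n = 5 each, adjusted p = 0.0212), and its difference from WT, 0.27, did not pass (adjusted p = 0.295). Mat2a, the S-adenosylmethionine synthetase that prevails outside the adult liver, fell by 0.54 (SE 0.13, 65.3 ± 1.85 against 94.98 ± 20.2 CPM in C247S KI, adjusted p = 0.0169). Against WT, where Mat2a averaged 88.4 ± 10.4 CPM, its difference of -0.44 did not pass (adjusted p = 0.0567). Between C247S KI and WT 0 of the 34 passed with edgeR (2 at an unadjusted p under 0.05), beside 0.0862% of all genes tested (9.84% unadjusted), with a median of -0.03.

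Other measures moved with the KO genotype beside Odc1, Sat1 and Srm. A clock index, the mean log2 CPM of 5 genes that peak with Dbp less that of 4 that peak with Arntl, was 3.15 to 4.002 in KO, 1.14 to 2.51 in C247S KI and 1.75 to 3.11 in WT, so no KO library lay within the range of another group. With that index as a covariate 0 of the genes passed: in KO over WT the log2 difference was -0.41 for Odc1 (adjusted p = 0.132), -0.60 for Sat1 (0.142) and 0.56 for Srm (0.139). In KO over C247S KI it was 0.62 for Srm (adjusted p = 0.190) and -0.54 for Sat1 (0.254). The index and the KO genotype cannot be told apart in these libraries.

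Some markers of cell types also differed in KO, while others of the same lists did not pass. The summed hepatocyte markers given above were lower in every KO library than in every WT library, through Alb, at 38230 CPM in KO, 66613 CPM in C247S KI and 66440 CPM in WT (means). Alb was called lower in KO against both groups, the 5 other hepatocyte markers were not called, and the median log2 difference of the 6 for KO over WT was 0.05. Stellate cell and fibroblast markers summed to 153 to 462 CPM in KO, 356 to 552 CPM in C247S KI and 496 to 570 CPM in WT (7 of 7 tested, 1 lower in KO than in WT). Cholangiocyte markers summed to 25.7 to 38.7 CPM in KO, 46.7 to 123 CPM in C247S KI and 35.3 to 53.8 CPM in WT (6 of 6 tested, 2 lower in KO than in C247S KI). Most of that sum was Spp1, at 18.3 CPM in KO, 50.8 CPM in C247S KI and 28.0 CPM in WT (means). The 2 called were Spp1 and Sox9, and Krt19, Krt7, Epcam and Cldn7 were not called. Adipocyte markers summed to 1.26 to 3.52 CPM in KO, 7.87 to 48.6 CPM in C247S KI and 3.57 to 25.5 CPM in WT, and only Cfd of the 5 was tested, while the defining marker Adipoq averaged 0.120 CPM in KO, 0.0820 CPM in C247S KI and 0.118 CPM in WT. Pancreatic acinar markers summed to 32.8 to 53.0 CPM in KO, 5.43 to 16.2 CPM in C247S KI and 11.1 to 25.6 CPM in WT, which was nearly all Cela1 (the 1 gene tested), while Prss2 was at 0 in every library and Cpa1, Pnlip and Ctrb1 averaged 0 to 0.0311 CPM. Sinusoidal endothelial markers summed to 112 to 177 CPM in KO, 114 to 144 CPM in C247S KI and 102 to 226 CPM in WT. Of the 6, Lyve1 and Pecam1 were called lower in KO than in WT (log2 differences of -1.41 and -0.80) and Lyve1 was called lower than in C247S KI (-1.46). The rest were not called and went both ways. For KO over WT Stab2 was at 0.31, Kdr at 0.23, Clec4g at 0.03 and Cdh5 at -0.67. For KO over C247S KI Kdr was at 0.73, Stab2 at 0.51, Clec4g at 0.45, and Pecam1 and Cdh5 at -0.40. Kupffer cell and macrophage markers summed to 86.1 to 323 CPM in KO, 65.6 to 165 CPM in C247S KI and 137 to 353 CPM in WT, and 0 of the 8 were called with edgeR in KO against WT (2 at an unadjusted p under 0.05) or C247S KI (1). In C247S KI against WT 0 of the 8 were called with edgeR, with a median log2 difference of -0.79. There 6 of the 8 were at an unadjusted p under 0.05, beside 9.84% of all genes. Of the cholangiocyte markers 3 of 6 were under that p in C247S KI against WT, with 0 called and a median of 0.74. T, NK and B cell markers summed to 3.70 to 6.38 CPM in KO, 4.80 to 7.61 CPM in C247S KI and 3.27 to 11.8 CPM in WT, and of the 5 tested Ms4a1 was called lower in KO than in WT. In bulk RNA fewer cells of a type and less RNA per cell cannot be told apart, and the part of these markers in the polyamine genes was not tested.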

How the data were processed

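Liver RNA of 15 libraries was sequenced in bulk. The authors deposited estimated counts for each transcript, already rounded to integers. Per the submitters' processing notes Trimmomatic 0.39, kallisto 0.50.1, DESeq2 and mm10 were used, in roles those notes do not give here; for the transcript set, no source used here gives a name. In such estimated counts reads shared by near-identical transcripts are divided among them before the table is made.

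Transcripts were matched by identifier without version to GENCODE M21 (114331 of 115911, 98.64%; 13 with the same version), and the 1580 unmatched held 0.366% to 0.459% of a library's counts and were left out. Values were already whole, so rounding changed nothing. Counts were summed to genes and kept by filterByExpr (minimum count 10, minimum total 15). All 15 libraries entered 1 edgeR 4.0.16 fit (R 4.3.3; TMM, quasi-likelihood test, Benjamini-Hochberg over 13916 genes, threshold 0.05). The SE is the log2 difference over the root of F, and the prior count for log2 CPM was 2. The procedure was also run on simulated gene counts, with changes set only in genes above the level of Amd2. That run held no division of shared reads, so it does not bear on Amd2. Same-group libraries differed beyond counting noise (30 pairs, with a chi-square of 22.8 to 369 divided by its degrees of freedom), so each was counted once. Sequences are from GENCODE M21 and RefSeq GRCm38.p6, were aligned with Biopython 1.88, and may differ in detail from the set the authors used. Figures used matplotlib 3.10.9.

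A test of Amd2 in KO against WT had been planned and is not reported, since its counts there were below the filter. The genes, lists and alternatives were chosen with earlier results of these data known. All 10 genes are named, then up to 3 called genes per pathway list with the lowest p, then the 5 genes most like Amd2, leaving out predicted gene models, and Txnip. Alternatives were DESeq2 1.42.0, limma-voom (limma 3.58.1), scaling by RLE or by upper quartile, no filter, a mean count of at least 50, 2-group fits, a replicate block, the clock index, leaving out libraries, Amd1 and Amd2 as 1 gene, and, chosen after seeing the data, coding transcripts only.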

Additional observations from a re-analysis of the deposited data

Results flagged for a closer look

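Of 36 sets of 5 libraries checked for a library far from its group (the CPM of the 10 genes, the Amd2 share and the sum of Amd1 and Amd2 in each of the 3 groups), 2 held one, and about 1 set in 20 would by chance. The Amd2 share of 55.6% in C247S KI 2 was separated from the 4 other C247S KI libraries, at 9.35% to 21.5%. The Azin1 level of 179 CPM in WT 1 was separated from the other WT libraries, at 105 to 124 CPM.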

How the results depend on the processing

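With the clock index as a covariate, the count of polyamine genes called was 0 in KO against C247S KI, where it was 2, and 0 in KO against WT, where it was 3; the cause was not tested. Leaving out 1 library gave 1 to 3 called genes in KO against C247S KI and 2 to 3 in KO against WT, and the count of 1 in KO against C247S KI came without KO 2, KO 4, KO 5, C247S KI 1 or C247S KI 5. In C247S KI against WT the count was 0 under all 27 alternatives run. No count filter ended the call of Srm in KO against WT (adjusted p = 0.0501), and a mean count of at least 50 brought Odc1 past the threshold in KO against C247S KI (-0.29, adjusted p = 0.0478). Amd2 did not pass the filter in the fit of KO and WT alone or at a mean count of at least 50. Over the alternatives its log2 difference stayed between 3.46 and 4.03 in C247S KI over WT, and the difference of the sum of Amd1 and Amd2 between -0.59 and -0.26. Divided by transcript length, the mean Amd2 share moved by less than the SD of each group.

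Over all genes, the number called in C247S KI against WT was 12, beside 65 with DESeq2, 20 with no count filter, 26 with the clock index, 6 with the replicate block or the 2 groups alone, and 4 to 24 leaving out 1 library. In KO against WT it was 939, beside 1505 with DESeq2, 182 with the clock index, 1542 without WT 1, C247S KI 3 and C247S KI 5, and 521 to 1259 leaving out 1 library. In KO against C247S KI it was 1427, beside 129 with the clock index and 784 to 2280 leaving out 1 library. Most same-numbered libraries of different groups did not deviate together (r = -0.141 to 0.381, with 4 of 15 pairs over 0.1). Of the 15 libraries 5 correlated best with their own number. These values do not settle whether the numbers pair the libraries, and the main fit did not pair them. With this replicate block the counts of polyamine genes called were 2, 3 and 0, as without it. Amd2, at 0 to 9 counts outside C247S KI, is limited by depth.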
